A study of Arabidopsis thaliana with 24 samples.

Results

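Among the annotated introns of Arabidopsis thaliana, 17296 measure 80 bases or less, and they are the subject here. They were picked by their annotated width alone, as the named introns of the deposited intron tables with a width of at most 80 bases, out of 120717 named introns (14.3%). They lie in 9567 host genes of the 22235 genes with introns, all on the 5 nuclear chromosomes, and each was read relative to the count of its host gene. RNA-seq was done on tissue labelled as whole plants, in 4 groups of 3 replicates. Each replicate was sequenced as 2 libraries that were deposited as 1 count column. The lsm4 group carried the lsm4-1 mutation in the accession Col, and its control was wild type (WT) Col; both grew on agarose medium with Murashige and Skoog salts. The lsm5 group carried the sad1 mutation of LSM5 in the accession C24, and its control was WT C24; both grew on soil. The protocol gives the harvest as day 15 for lsm4 and day 30, before bolting, for lsm5, and names no day for either wild type, while the series' design text gives 2 weeks of growth for all plants, so the ages are uncertain. All plants were stratified for 4 days and grown at 22 °C in continuous light, and RNA was selected by its polyA tail. Accession and medium differ between the pairs, and by the protocol so does the age of the mutants, so a difference between the lsm4 and lsm5 effects cannot be told apart from these. Separate growths for the replicates are not stated in the labels, and p-values therefore cover only the spread between these samples.

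LSM proteins form rings that bind RNA. The nuclear ring, LSM2 to LSM8, binds the 3′ end of the U6 small nuclear RNA, which pairs with the first bases of the intron (the 5′ splice site) when the spliceosome is activated; the cytoplasmic ring promotes the removal of the mRNA cap. LSM4 and LSM5 belong to both rings. An intron must hold a 5′ splice site, a branch point and a 3′ splice site with enough room for the spliceosome between them, and most Arabidopsis introns are short and rich in A and T. A retained intron stays in the mature mRNA, where it often brings a stop codon, and such mRNAs can be degraded by nonsense-mediated decay.

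The 9 introns of coding regions printed here are those whose relative signal was furthest above WT Col in lsm4 under the naming rule, shown so that their splice sites can be compared. They are given 5′ to 3′ on the sense strand from the RefSeq reference TAIR10.1, with the first and last 2 bases in capitals (the GT and AG of the splice sites). Their positions are, in the same order, chr5:4005204-4005271 (minus strand), chr3:17910236-17910312 (minus strand), chr2:18911299-18911378 (plus strand), chr1:2640246-2640310 (plus strand), chr5:19368845-19368910 (plus strand), chr5:16904801-16904880 (plus strand), chr3:23344476-23344552 (minus strand), chr2:9083393-9083461 (plus strand) and chr1:22037678-22037756 (plus strand). Intron numbers are those of the deposited tables, which follow the coordinates, so they run from the 3′ end in genes on the minus strand.
SEC10 intron 10: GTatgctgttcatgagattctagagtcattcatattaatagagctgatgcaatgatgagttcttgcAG
BT2 intron 4: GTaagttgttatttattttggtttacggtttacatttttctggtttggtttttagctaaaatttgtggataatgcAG
PIP1;2 intron 2: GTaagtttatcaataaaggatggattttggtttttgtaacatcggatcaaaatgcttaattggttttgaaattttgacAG
ATDCP1 intron 7: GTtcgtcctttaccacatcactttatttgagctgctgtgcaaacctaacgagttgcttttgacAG
FRA1 intron 8: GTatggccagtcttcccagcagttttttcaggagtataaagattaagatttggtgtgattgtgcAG
VAR1 intron 4: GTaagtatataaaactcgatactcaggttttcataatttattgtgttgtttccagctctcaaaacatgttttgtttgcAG
cpRRF intron 10: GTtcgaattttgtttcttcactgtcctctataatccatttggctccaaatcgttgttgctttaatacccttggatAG
AT2G21195 intron 2: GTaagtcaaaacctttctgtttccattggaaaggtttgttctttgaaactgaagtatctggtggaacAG
PDR8 intron 5: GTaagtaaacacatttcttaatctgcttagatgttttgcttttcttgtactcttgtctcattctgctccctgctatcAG
Of these 9, 5 begin with GTAAGT, the consensus start of plant introns, and 8 end with CAG. Over the whole class 10.5% begin with GTAAGT and 63.6% end with CAG. Among all introns of the class called higher in lsm4 (below), these shares were 17.2 and 65.4%. None of the 9 overlaps an annotated exon.

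The introns of the class lie close to its upper limit. Their median width was 76 bases: 9429 (54.5%) measured 76 to 80 bases, 4924 (28.5%) 71 to 75, 1652 (9.55%) 66 to 70, 435 (2.52%) 61 to 65, and 856 (4.95%) 60 bases or less. GT at the start and AG at the end stood in 98.9% of them and in 98.5% of the wider introns, and their median share of A and T was 67.1%, against 67.4% in wider introns. They were the first intron of their gene in 12.8% of cases, against 18.8% of the wider introns. Their width was a multiple of 3 in 28.7%, against 33.7% of the wider introns. Of the 15849 that part coding exons, 12755 (80.5%) would add a stop codon in frame if retained, 2411 (15.2%) would shift the frame with no stop of their own, and 683 (4.31%) would insert whole codons; of 94675 wider introns, 91% would add a stop. The host with most of them was AT1G64790 (ILA), with 15. An annotated exon overlapped 1284 of them (7.42%), and for these the count cannot be told apart from exon reads.

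Gene counts per column ran from 9402839 in WT Col 1 to 52218346 in WT Col 2, and the introns of 80 bases or less held 16067 to 103141 counts per column, which limits what can be seen in any of them. No read fell in 3898 of them (22.5%) in any of the 12 columns. Gene counts of LSM4 were 409, 280 and 406 CPM (counts scaled to the column's summed gene counts) in lsm4, against 45.7, 46.4 and 68.3 CPM in WT Col, so the level of the gene does not check the label of this mutant. LSM5 held 9.70, 10.3 and 20 CPM in lsm5, against 20.6, 10.8 and 15.6 CPM in WT C24, and the groups overlapped. The labelled tissue is whole plants: the 4 rosette leaf markers summed to 28756 to 40694 CPM in lsm4, 40603 to 53206 in WT Col, 37467 to 52910 in lsm5 and 39596 to 59538 in WT C24. The 6 root markers summed to 163 to 180 CPM in lsm4 and 207 to 262 in WT Col. In lsm5 they summed to only 65.9 to 79.6 and in WT C24 to 62.8 to 73.4, with 2 and 1 at 0 throughout. There SHR and SCR made up nearly all of the sum. CASP1, RHD6, IRT1 and PLT2 were at or below 0.353 CPM in each library of the C24 pair. For that pair these markers therefore do not bear out the label of whole plants. Whether roots were sampled was not tested. In the Col pair SHR was higher in lsm4 (72.3, 53.9 and 64.7 CPM) than in WT Col (29.0, 37.5 and 37.8). CASP1, RHD6, IRT1, SCR and PLT2 were lower in lsm4 without overlap. The 5 flower markers summed to 2.31 to 3.90 CPM in lsm4 and 0.531 to 1.53 in WT Col. In the C24 pair they summed to 5.86 to 7.25 in lsm5 and 0.589 to 4.04 in WT C24. The sums were low in all groups but higher in both mutants without overlap. In the Col pair this came from SEP3 alone. Its lsm4 libraries held 1.67, 3.65 and 1.99 CPM, those of WT Col 0.106, 0.326 and 0.0764. PI overlapped between these groups, at 0.632, 0.254 and 0.26 CPM (lsm4) and 0.425, 0.709 and 1.45 (WT Col). AP1, AP3 and AG stayed at or below 0.0577 CPM throughout the Col pair. AP1 was at 1.90, 2.41 and 2.47 CPM in lsm5, against 0, 0.0269 and 0 CPM in WT C24. In the C24 pair all 3 seed markers, CRA1, SESA1 and SESA2, were at 0, while in the Col pair they summed to at most 3.79 CPM. The senescence markers SAG12 and SAG13 summed to 13.0 to 18.2 CPM in lsm4, 2.55 to 6.65 in WT Col, 440 to 532 in lsm5 and 353 to 376 in WT C24. In whole plants, fewer cells of a type and less RNA per cell cannot be told apart; the part of these shifts in the intron results was not tested. On the second principal component of the gene counts, lsm4 2 and WT Col 1 lay away from the rest of their pair, as did lsm5 3 and WT C24 2.

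Reads in the introns of 80 bases or less made up a larger share of their host gene counts in lsm4 than in WT Col. The share was 1.01, 0.971 and 0.931% in lsm4, against 0.560, 0.580 and 0.577% in WT Col. That is 1.70 times as much (0.971 ± 0.0404% in lsm4 and 0.572 ± 0.0107% in WT Col, SD, n = 3 each). In lsm5 it was 0.751, 0.717 and 0.710%, against 0.516, 0.626 and 0.556% in WT C24, or 1.28 times as much (0.726 ± 0.0217% in lsm5 and 0.566 ± 0.0557% in WT C24, SD, n = 3 each). In both pairs every mutant library lay above every wild type library, and the exact two-sided permutation p was 0.1, the smallest that 3 against 3 allows. These sums took every intron of the class, with no filter on counts.

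Part of them came from a place where intron and exon cannot be separated. Intron 1 of AT3G22121 measures 24 bases and lies wholly within an annotated exon. It alone held 11.4, 5.97 and 11.9% of the class's counts in lsm4, 11.2, 17.1 and 18.3% in WT Col, 26.3, 27.0 and 17.4% in lsm5 and 20.3, 36.9 and 24% in WT C24. Without introns that overlap an exon, the share was 0.822, 0.839 and 0.758% in lsm4, against 0.449, 0.439 and 0.423% in WT Col, 1.85 times as much. It was 0.526, 0.494 and 0.542% in lsm5, against 0.377, 0.373 and 0.387% in WT C24, 1.37 times as much. The median over host genes, in which no gene weighs more than another, was 2.30 times as high in lsm4 (1.97 ± 0.0204% in lsm4, 0.857 ± 0.0756% in WT Col) and 1.46 times as high in lsm5 (1.13 ± 0.0490% in lsm5, 0.771 ± 0.0527% in WT C24; SD, n = 3 each). Groups did not overlap in any of these, again with the exact permutation p of 0.1.

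The wider introns of the same host genes gained less. The log2 ratio of counts in introns of 80 bases or less to counts in the 60535 wider introns of their hosts, exon overlaps left out, was -1.55, -1.52 and -1.53 in lsm4, against -1.76, -1.74 and -1.69 in WT Col, a difference of 0.20. In lsm5 it was -1.59, -1.58 and -1.61, against -1.80, -1.73 and -1.80 in WT C24, a difference of 0.18. With exon overlaps kept, the differences were 0.17 and 0.14. Neither pair's groups overlapped, and the exact permutation p was 0.1 in each case, the smallest possible. Without lsm4 2 and WT Col 1, the difference with exon overlaps kept was 0.10 in the Col pair. With the limit at 75 bases instead of 80, the lsm5 difference was 0.11, the groups overlapped and the exact permutation p was 0.4.

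Between 66 and 90 bases, the narrower the introns, the more they gained. Intron density here sets the reads per base of introns against those per base of their host genes, in percent, summed over all introns of a width class that begin with GT, end with AG and overlap no exon. For introns of 61 to 65 bases it was 29.2 ± 1.45% in lsm4 and 11.8 ± 0.581% in WT Col (SD, n = 3 each, as for all densities that follow), 2.48 times as high. For 66 to 70 bases it was 20.3 ± 0.819% in lsm4 and 7.63 ± 0.138% in WT Col, 2.66 times as high. At 71 to 75 bases the ratio was 2.04 (13.6 ± 0.970% in lsm4, 6.68 ± 0.382% in WT Col), and at 76 to 80 bases 1.79 (9.88 ± 0.540% in lsm4, 5.53 ± 0.113% in WT Col). Past the limit the ratio went on to 1.69 at 81 to 85 bases and 1.33 at 86 to 90, and it lay between 1.5 and 1.62 in the wider classes. Introns of 80 bases had a median log2 change of 0.74 over 150 tested, and those of 81 bases 0.89 over 155 tested.

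In the C24 pair the same classes had lower ratios in nearly the same order. Density at 61 to 65 bases was 15.7 ± 0.639% in lsm5 and 9.41 ± 0.518% in WT C24, 1.67 times as high. At 66 to 70 bases it was 10.2 ± 1.28% in lsm5 and 5.81 ± 0.0606% in WT C24, 1.76 times as high. The ratio was 1.46 at 71 to 75 bases, 1.33 at 76 to 80, 1.32 at 81 to 85 and 1.15 at 86 to 90; in wider classes it ran from 1.06 to 1.36, and at 301 to 500 bases the groups overlapped. The narrowest introns, of 60 bases or less, stood outside this order in both pairs. In the Col pair their density was 31.5 ± 5.47% in lsm4 and 27.6 ± 2.63% in WT Col, and the groups overlapped. In the C24 pair it was 15.5 ± 0.668% in lsm5 and 11.5 ± 0.679% in WT C24, 1.35 times as high with no overlap (exact permutation p = 0.1, the smallest possible). That ratio lay below those at 61 to 75 bases. The 22 introns of this class tested in lsm5 had a median log2 change of 0.14. Whether the pairs differ in this class was not tested. In this class, 53.3% had no read in any column, against 20.9% of those of 61 to 80 bases, and their median share of A and T was 62.5%, against 67.5%.

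**Figure D1:**
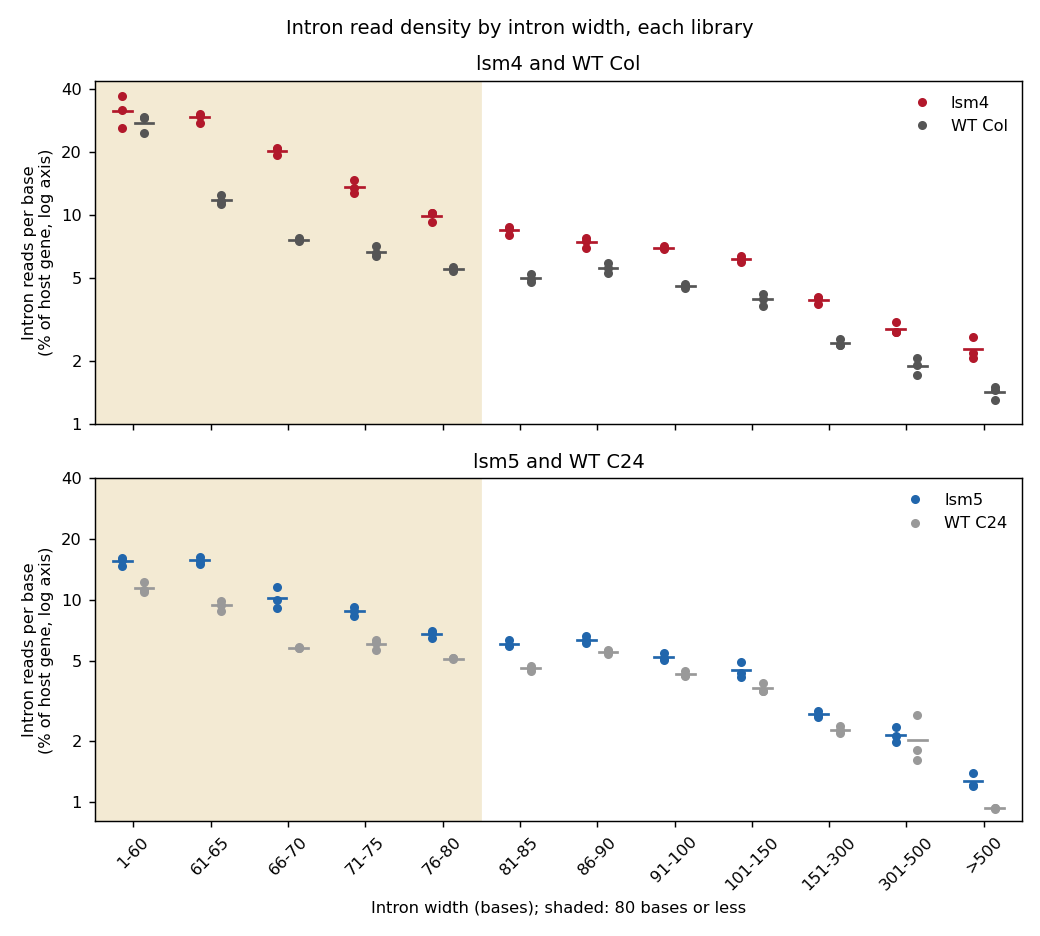
Intron reads per base as a percentage of the host gene's reads per base (log axis) by intron width, for lsm4 beside WT Col (top) and lsm5 beside WT C24 (bottom). Each point is 1 library of 3 per group, bars are means, and the shaded classes are 80 bases or less; the gap between lsm4 and WT Col is widest at 61 to 70 bases, where lsm4 means are 29.2 and 20.3% and WT Col means 11.8 and 7.63%.

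The next question was which of these introns changed in lsm4. Of 11439 introns of any width with enough counts to be tested, 17.6% were called higher relative to their host and 0.297% lower. Of the introns of 80 bases or less, 1396 (8.07%) could be tested; 390 of them (27.9%), in 365 genes, rose and 4 fell (edgeR quasi-likelihood test with the host count as offset, adjusted p under 0.05 over all introns tested). Of 10043 wider introns tested, 1624 (16.2%) rose and 30 fell. The median log2 change was 1.02 in the short class and 0.61 in the wider introns, with 0.65 over all tested. At 60 bases or less, 7 of 47 tested introns rose (14.9%), with a median log2 change of 0.43. The share that rose was 39.7% at 61 to 65 bases, 36.2% at 66 to 70, 30.0% at 71 to 75 and 24.3% at 76 to 80. It was 19.9% at 81 to 85 and about level from there, at 14.7 to 15.4%, until it reached 20.7% beyond 500 bases. Only introns with enough reads in either group enter these counts, so an intron that passed because of its lsm4 reads had to differ; 1192 of the 1396 had fewer than 10 counts in some WT Col library. Among the 317 with a mean count of at least 30, 102 (32.2%) rose, beside 399 of 2659 wider introns (15.0%). The median log2 change of these 317 was 0.65, below the 1.02 above, with 0.43 over all introns at that filter. Relative to the shift of all introns (the median of 0.65 set to 0), 105 of the 1396 rose (7.52%) and 11 fell, beside 305 wider introns that rose (3.04%). The count was 199 without WT Col 2 and 248 without lsm4 1. Some of the 390 had near-equal values in different genes, such as intron 2 of AT1G58807 and of AT1G59124 (log2 change 4.35 in both). Whether such introns share reads was not tested, so the 390 introns and 365 genes may count some reads more than once.

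Short and wider introns were also set side by side within a host, as a description only. The same filter decides which introns enter, and a narrow intron, with fewer reads, needs a larger rise to pass it than a wider one. In 800 genes with tested introns of both kinds, the median change of the short ones was above that of the wider ones in 501 (62.6%), by a median log2 difference of 0.32. For lsm5 over WT C24 it was above in 243 of 437 genes (55.6%), by a median of 0.07. All 3 lsm4 libraries lay above all 3 WT Col libraries for 682 of the 1396 (48.9%), beside 36.6% of all tested introns. The host genes themselves changed in both directions: of the 365 genes with a raised short intron, 64 rose, 49 fell and 252 were not called at the gene level, where 10.7% of all genes tested rose and 10.7% fell. Over all hosts of the class, 1560 of 7600 tested genes (20.5%) were called, beside 21.4% of all genes; without lsm4 1 the hosts called were 896, without lsm4 3 1034, without WT Col 2 938 and without WT Col 3 1007. In 20 genes 2 or more short introns rose. CHY1 (chy1 in the files), a peroxisomal hydrolase of valine breakdown, had 4, introns 10 to 13 by coordinate, of 69, 75, 61 and 64 bases. Intron 13 was at 40.2, 40.5 and 31.9% of host density in lsm4, against 4.59, 7.90 and 9.63% in WT Col (log2 change 2.22, SE 0.47, edgeR adjusted p = 0.007). CHY1 was chosen for this count after its values were seen.

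**Figure D2:**
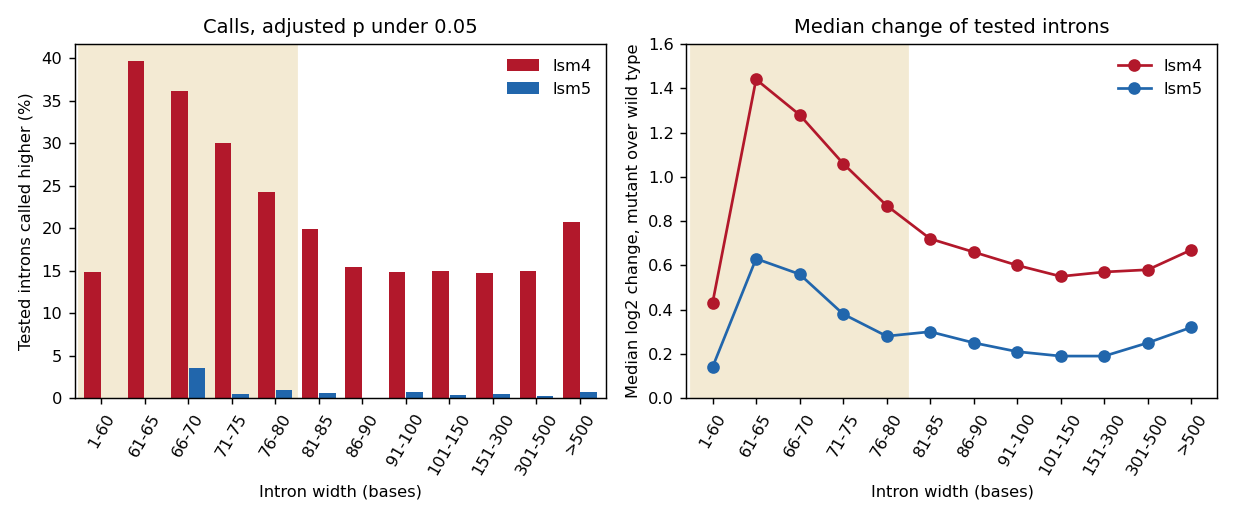
Share of tested introns called higher (left, adjusted p under 0.05) and their median log2 change (right) by width class, for lsm4 over WT Col and lsm5 over WT C24. In lsm4 both fall from 61 to 65 bases (39.7%, median 1.44) to 91 to 100 bases (14.9%, median 0.60), while calls in lsm5 stay at or below 3.49%. The class of 60 bases or less lies outside this order in lsm4 (14.9%, median 0.43).

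The largest rise under the naming rule was that of intron 10 of SEC10, which encodes a subunit of the exocyst, the complex that tethers vesicles to the plasma membrane. The 68 bases of this intron held 99, 124 and 140 counts in lsm4, against 0, 7 and 0 counts in WT Col. That is a density of 175, 171 and 233% of the host in lsm4 and of 0, 11.5 and 0% in WT Col (log2 change 4.95, SE 0.58, edgeR adjusted p = 4.1e-04). All WT Col counts came from WT Col 2; without it the fitted log2 change was 9.52, a value that then depends on the prior count. A density above 100% can occur where a read that reaches into a narrow intron is counted whole. The 23 other introns of SEC10 that are free of exons stood at 2.78 ± 0.297% in lsm4 and 1.75 ± 0.312% in WT Col. In the C24 pair the same intron was at 70.9, 110 and 85.6% in lsm5 and at 18.5, 24.5 and 20% in WT C24. The SEC10 locus is known to hold a near-identical tandem copy, whose reads these counts cannot separate.

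The other introns named by this rule had log2 changes of 3.29 to 4.39. Intron 4 of BT2, a BTB and TAZ domain protein, is the first intron in the direction of transcription. It was at 36.1, 55.6 and 88.7% in lsm4, against 0, 2.98 and 3.29% in WT Col (log2 change 4.39, SE 0.54, edgeR adjusted p = 6.1e-04), while the other exon-free intron of BT2 was at 34.8 ± 14.6% in lsm4 and 22.1 ± 6.61% in WT Col. Intron 2 of PIP1;2, a plasma membrane aquaporin, held 669, 820 and 198 counts in lsm4 and 6, 17 and 6 in WT Col. Its density stayed low, at 7.87, 11 and 2.60% in lsm4 and 1.15, 0.492 and 0.377% in WT Col (log2 change 3.69, SE 0.53), beside many host reads: PIP1;2 itself rose to 4035 ± 212 CPM in lsm4, against 1051 ± 93.5 CPM in WT Col (SD, n = 3 each; edgeR adjusted p = 0.002). The other exon-free intron of PIP1;2 was at 10.5 ± 5.71% in lsm4 and 2.58 ± 0.842% in WT Col, so the short intron was not alone in standing higher. Intron 8 of FRA1, a kinesin needed for ordered cellulose in cell walls, was at 104, 95.6 and 127% in lsm4 and at 0, 13.2 and 6.12% in WT Col (log2 change 3.54, SE 0.57). Intron 5 of PDR8, also called PEN3, an ABC transporter of pathogen defence, was at 38.8, 33.4 and 55.7% in lsm4 and at 3.00, 3.20 and 6.26% in WT Col (log2 change 3.29, SE 0.45).

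Intron 10 of cpRRF, the ribosome recycling factor of the chloroplast, was at 97.0, 116 and 120% in lsm4, against 13.3, 10.5 and 7.99% in WT Col (log2 change 3.42, SE 0.35, edgeR adjusted p = 1.8e-04). The cpRRF gene as a whole fell to 30.7 ± 3.98 CPM in lsm4, against 102 ± 16.1 CPM in WT Col (SD, n = 3 each; adjusted p = 2.7e-04). Intron 4 of VAR1, a subunit of the FtsH protease that repairs photosystem II, was at 7.17, 6.85 and 5.31% in lsm4 and 0.469, 0.428 and 0.827% in WT Col (log2 change 3.48, SE 0.48). Intron 11 of PGR5-LIKE.A, a protein of cyclic electron flow, lies in the 3′ UTR. It was at 52.5, 24.4 and 50.3% in lsm4 and 2.96, 4.16 and 4.38% in WT Col (log2 change 3.39, SE 0.43), and its gene fell to 104 ± 19.7 CPM in lsm4, against 168 ± 46.6 CPM in WT Col (adjusted p = 0.019). Intron 2 of AT2G21195, of unnamed function in the files, was at 87.1, 108 and 70.8% in lsm4 and 15.7, 11.2 and 2.19% in WT Col (log2 change 3.36, SE 0.55). All 10 introns named by this rule, DCP1 included, kept their direction and their call under every alternative setting that tested them.

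**Figure D3:**
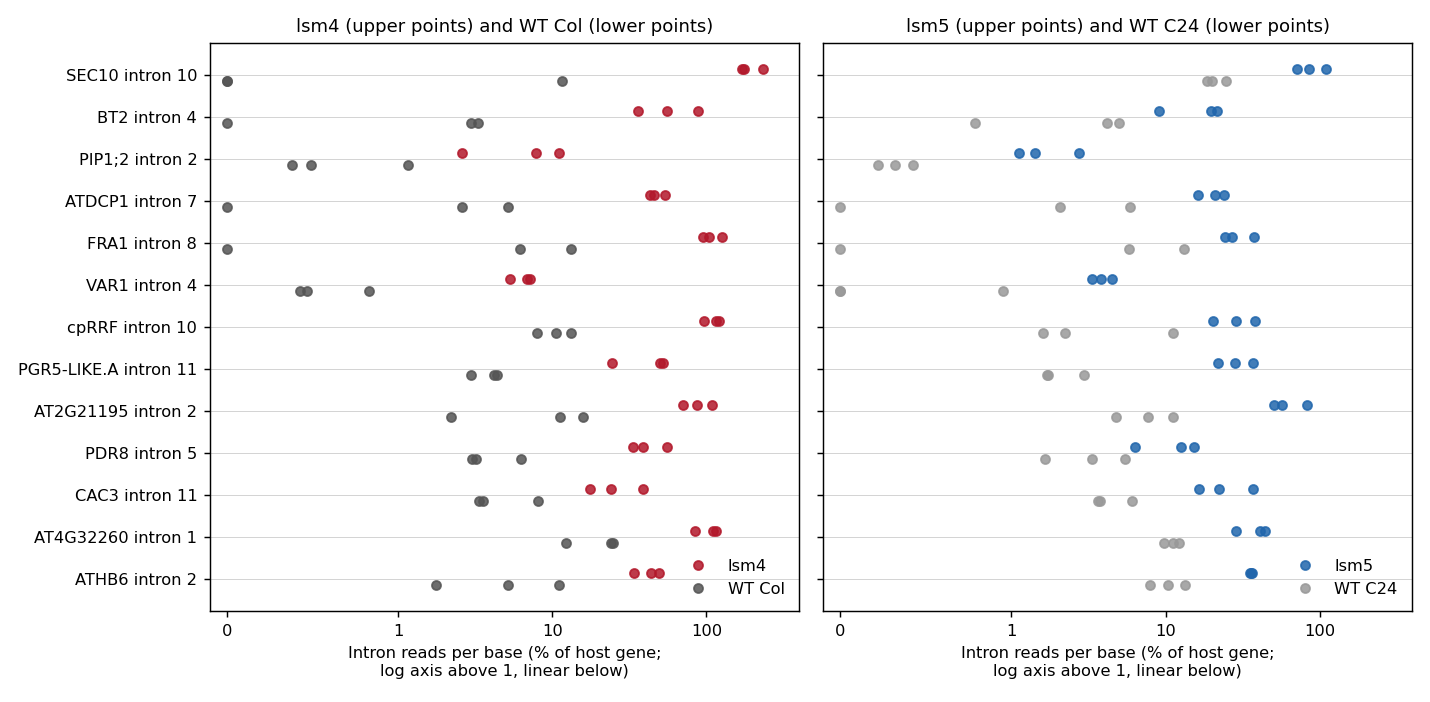
Density of 13 named introns of 80 bases or less (percent of host gene, log axis above 1) in each library, with lsm4 above WT Col (left) and lsm5 above WT C24 (right). Groups without overlap were a condition of naming in the pair an intron was chosen in; SEC10 intron 10 reaches 233% in lsm4 and 110% in lsm5.

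Genes of RNA processing were taken from gene lists and read as hosts. Of the 20 genes of SR splicing factors, proteins that bind exons and recruit the spliceosome, 13 hold 19 introns of the class, and 12 of these could be tested in lsm4. Of those 12, 6 rose in 5 genes and none fell. The called share was 27.9% in the short class and 17.6% over all tested introns. The median log2 change of the 12 was 1.39, against 1.02 in the short class and 0.65 over all tested introns. None of the 20 genes changed at the gene level. SR30 held 2 of the 6 introns that rose. Its intron 10 was at 79.3, 56.6 and 49.4% in lsm4 and at 14.4, 16.8 and 4.98% in WT Col (log2 change 2.30, SE 0.45, edgeR adjusted p = 0.0044), and its intron 5 at 60.9, 79.3 and 44.7% in lsm4 and 20.7, 23.7 and 14.4% in WT Col (log2 change 1.61, SE 0.40). The others were intron 8 of SR33 (SCL33; log2 change 1.58, SE 0.42), intron 8 of RS40 (2.18, SE 0.58), intron 7 of RS41 (2.05, SE 0.60) and intron 5 of SRZ-22 (RSZ22; 1.15, SE 0.35). In every case the groups did not overlap. SR30 intron 10 kept its call under every setting. The other 5 lost it when changes were taken relative to the shift of all introns, and when a library was left out (SR30 intron 5 without WT Col 3; the rest without WT Col 2, lsm4 1 or lsm4 3, among others). Short introns that missed the threshold included SR34 intron 8 (log2 change 0.35, SE 0.57) and RS2Z33 intron 2 (0.63, SE 0.40).

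Of 14 introns of the class in 8 genes of mRNA decapping and decay, 3 were tested in lsm4 and 2 rose. Beside this list and those below stand the called shares of 27.9% in the short class and 17.6% over all tested introns. Intron 7 of DCP1 (ATDCP1 in the files), an activator of the decapping enzyme, was at 43.3, 45.6 and 53.6% in lsm4 and at 0, 5.13 and 2.61% in WT Col (log2 change 3.60, SE 0.51, edgeR adjusted p = 9.8e-04). Its 6 other exon-free introns were at 1.96 ± 0.539% in lsm4 and 0.614 ± 0.0585% in WT Col. Intron 2 of DCP5, a decapping cofactor, held 12, 11 and 23 counts in lsm4 and 0, 2 and 1 in WT Col (adjusted p = 0.0042), and lost its call without lsm4 3. Of 5 tested introns of core spliceosome genes 1 rose, intron 9 of U2AF65A, the subunit that binds the pyrimidine tract before the 3′ splice site: 14.5, 20.5 and 15.7% in lsm4, against 4.04, 2.32 and 0.980% in WT Col (log2 change 3.02, SE 0.49). Of 2 tested in genes of abscisic acid synthesis and signalling 1 rose, intron 3 of ABI1, a phosphatase that blocks the response to this hormone: 26.1, 18.8 and 29.0% in lsm4, against 5.28, 5.71 and 5.30% in WT Col (log2 change 2.16, SE 0.43). That call was lost relative to the shift of all introns. In genes of nonsense-mediated decay 2 were tested and neither was called (median 0.97). The lists of clock genes (17 introns of the class) and of the LSM ring (1 intron) held none with enough reads.

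The 4 introns that fell in lsm4, named here after their values were seen, mostly lay where an exon is annotated. ORP4C intron 6, of an oxysterol-binding protein gene, lies wholly within an exon and was at 134, 141 and 140% in lsm4, against 553, 349 and 336% in WT Col (log2 change -1.50, SE 0.35, edgeR adjusted p = 0.01). AT1G75300 intron 1 and AT2G03140 intron 14 also lie wholly within exons, with log2 changes of -2.22 (SE 0.51) and -3.06 (SE 0.60). AT3G61010 intron 7 overlaps none and was at 35.2, 58.9 and 58.7% in lsm4, against 126, 203 and 82% in WT Col (log2 change -1.45, SE 0.47, adjusted p = 0.045). In each of the 4 every lsm4 library lay below every WT Col library, which held for 1.86% of all tested introns.

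In lsm5 few of these introns passed the test. Of 7151 introns of any width tested, 0.517% were called higher and 0.014% lower relative to their host in lsm5. In the short class 767 (4.43%) could be tested, and 8 rose (1.04%) while 0 fell (edgeR quasi-likelihood test with the host count as offset, adjusted p under 0.05). At an unadjusted p under 0.05 in this test, 132 were higher and 2 lower, beside 823 higher and 45 lower of all 7151. DESeq2 called 28 of the short class higher (3.65%) and 0 lower, beside 117 of the wider introns higher (1.83%). Of 6384 wider introns tested, 29 (0.454%) rose. The median log2 change was 0.34 in the short class and 0.24 over all tested introns. All lsm5 libraries lay above all WT C24 libraries for 176 of the 767 (22.9%), beside 16.5% of all tested introns. The count of 8 depended on which libraries entered: it was 0 without WT C24 1, without WT C24 3 or without lsm5 2, 1 without lsm5 1, 18 without WT C24 2 and 28 without lsm5 3. Without both lsm5 3 and WT C24 2, which stood apart, 98 rose (12.3%) and 41 fell, beside 776 wider introns that rose (12.0%). In gene counts, deviations of WT C24 2 correlated at 0.68 and 0.66 with lsm5 1 and 2, and at -0.8 with lsm5 3. Those of lsm5 3 correlated at 0.5 and 0.61 with WT C24 1 and 3. The libraries left, lsm5 1 and 2 and WT C24 1 and 3, thus differ in this shift too. Genotype and this shift cannot be told apart in the 98 and 41 calls. At the gene level 488 genes (2.46%) were called, 1.52% higher and 0.938% lower, and none of the 8 host genes was among them.

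The 8 introns were those of PGR5-LIKE.A, AT4G32260, CAC3, SEC10, ATHB6, AT2G21195, AT3G15770 and CIP1. Intron 11 of PGR5-LIKE.A was at 28.1, 36.7 and 21.9% in lsm5, against 2.95, 1.73 and 1.71% in WT C24 (log2 change 3.79, SE 0.48, edgeR adjusted p = 0.018). AT4G32260, named PDE334 in RefSeq, encodes a subunit of the chloroplast ATP synthase and has this intron only. It was at 44.2, 41.3 and 28.8% in lsm5, against 12.2, 11.1 and 9.72% in WT C24 (log2 change 1.79, SE 0.23, adjusted p = 0.018), with 172 to 851 counts per library, so it was the best measured of the 8. In lsm4 it reached 115, 84.7 and 110%, against 12.3, 23.9 and 24.6% in WT Col (log2 change 2.34, SE 0.27). Its sequence and that of the ATHB6 intron, for comparison with those from lsm4 above, were read from the same reference at chr4:15574024-15574091 and chr2:9527464-9527542, both on the minus strand, with GT and AG in capitals.
AT4G32260 intron 1: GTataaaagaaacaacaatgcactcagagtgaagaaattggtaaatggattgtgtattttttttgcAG
ATHB6 intron 2: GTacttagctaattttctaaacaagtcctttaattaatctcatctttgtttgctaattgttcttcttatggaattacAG
Intron 2 of ATHB6, a homeodomain leucine zipper factor that interacts with ABI1, was at 36.2, 35.5 and 36.0% in lsm5, against 7.94, 10.4 and 13.4% in WT C24 (log2 change 1.75, SE 0.32, adjusted p = 0.042). Intron 11 of CAC3, a subunit of the plastid acetyl-CoA carboxylase of fatty acid synthesis, lies in the 3′ UTR and was at 16.5, 22.2 and 37.0% in lsm5, against 6.02, 3.74 and 3.65% in WT C24 (log2 change 2.51, SE 0.46, adjusted p = 0.042). Intron 4 of AT3G15770 held 18, 27 and 24 counts in lsm5, against 2, 0 and 1 in WT C24, and intron 2 of CIP1, a protein that binds the light regulator COP1, held 22, 12 and 20, against 1, 1 and 0. Every lsm5 library was above every WT C24 library for each of the 8, which the naming rule required of the 5 it picked. Each of the 5 that the naming rule picked lost its call when WT C24 1, WT C24 3 or lsm5 2 was left out, without a change of direction. None of the SR, decapping, spliceosome or abscisic acid list introns was called in lsm5. The called share there was 1.04% in the short class and 0.517% over all tested introns. DCP1 intron 7 was at 16.2, 24 and 20.9% in lsm5, against 0, 2.05 and 5.92% in WT C24 (edgeR adjusted p = 0.11).

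The effects of the mutations were then set against each other. The 609 introns of the class tested in both pairs had log2 changes that correlated across introns with Pearson's r = 0.56 and Spearman's rho = 0.42; introns are not independent replicates, and they share width and host depth between the pairs, but no library. For the 5254 wider introns Pearson's r was 0.41. Both changes were above 0 for 397 of the 609 (65.2%). Of all introns of the class tested in each pair, 88.5% were above 0 in lsm4 and 71.1% in lsm5. The share above 0 in both therefore does not by itself show that the changes are related. Of the 8 introns called in lsm5, 7 were tested in lsm4 and all 7 rose there. Of the 390 that rose in lsm4, 142 were tested in lsm5, where 130 were above 0 with a median of 1.02. The other 467 tested in both had a median of 0.24 in lsm5. An intron can enter each pair through its mutant reads alone, which favours rises in both. Of the 767 introns of the class tested in lsm5, 482 had fewer than 10 counts in some WT C24 library. How much of the agreement between the pairs comes from this filter was not tested. The test of the difference itself, lsm4 over WT Col minus lsm5 over WT C24, called 0.0145% of 13774 introns higher and 0 lower. It called 0 of 1697 introns of the class (edgeR quasi-likelihood test, adjusted p under 0.05), while at an unadjusted p under 0.05 there were 121 higher and 26 lower. Of all 13774 introns, 834 were higher and 247 lower at that unadjusted threshold. For the whole class, each mutant library was also set against the mean of its wild type. The spread of the wild type libraries therefore entered neither of the 2 permutation tests that follow. The log2 change of the share of host counts was larger in lsm4 by 0.40 (0.76 in lsm4, 0.36 in lsm5, exact permutation p = 0.1, the smallest possible). The excess over wider introns of the same hosts differed by 0.02, within the spread of the mutant libraries (0.17 in lsm4, 0.14 in lsm5, exact permutation p = 0.8). The lowest p for a named intron was that of ATFRO6 intron 3, with a difference of 4.24 (SE 1.00, adjusted p = 0.30). SEC10 intron 10 (2.90, SE 0.75), CSP41A intron 3 (1.53, SE 0.41) and BTR1 intron 2 (2.18, SE 0.59) also had low unadjusted values, and adjusted p was 0.40 to 0.43 in the same test.

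**Figure D4:**
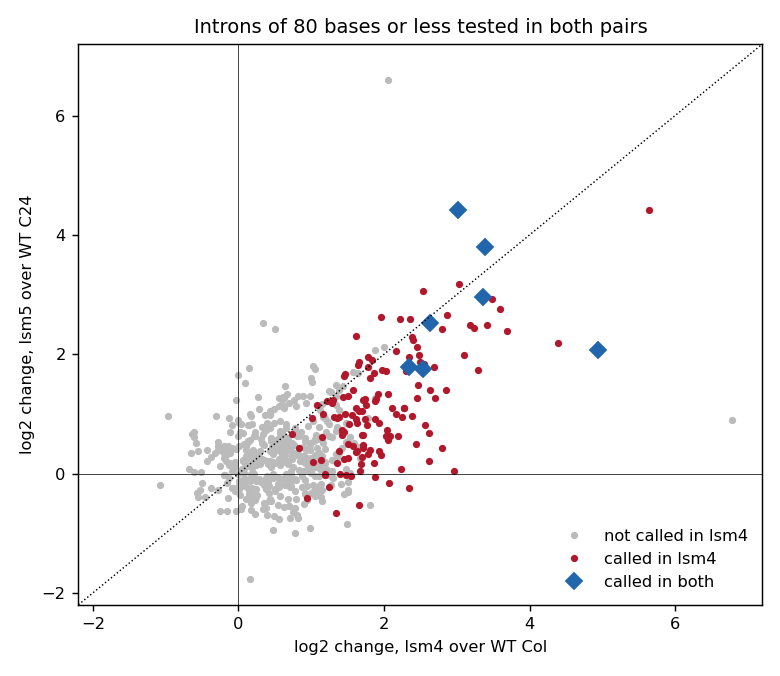
Log2 change relative to the host gene in lsm4 over WT Col (x axis) and in lsm5 over WT C24 (y axis) for the 609 introns of 80 bases or less tested in both pairs; the dotted line marks equal changes. Red points rose in lsm4, and blue diamonds are the 7 introns called in both pairs, which all lie above 0 on both axes.

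The introns that rose in lsm4 differed from the other tested ones in their 5′ splice sites. GTAAGT stood at the start of 17.2% of the 390 introns raised in lsm4, against 6.26% of the other 1006 tested; G at position 5, counted from the first base of the intron, stood in 62.6% against 45%. Such shares among tested introns depend on which ones had reads, so all 15164 introns of 61 to 80 bases with GT, AG and no exon overlap were summed, with no filter. The features for this were chosen after seeing those shares. The 1660 with GTAAGT (10.9%) had the lower density in wild type and the larger ratio. Their density was 11, 12.1 and 9.76% in lsm4, against 4.23, 4.24 and 4.33% in WT Col, 2.57 times as high. In the 13504 with another start it was 12.2, 12.5 and 11.4% in lsm4, against 6.48, 6.27 and 6.07% in WT Col, 1.92 times as high. The log2 ratio of GTAAGT starts to other starts was thus 0.42 higher in lsm4 than in WT Col, and the groups did not overlap. In the C24 pair, introns with GTAAGT were at 6.27, 5.99 and 6.31% in lsm5, against 3.64, 3.55 and 3.32% in WT C24, 1.77 times as high. Those with another start were at 7.87, 7.42 and 8.23% in lsm5, against 5.67, 5.59 and 5.81% in WT C24, 1.38 times as high, and the log2 difference was 0.36 with no overlap. Among 16 such relations the exact permutation p was 0.1 for both, the smallest possible, and 0.2 after Benjamini-Hochberg adjustment.

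Wider introns of 81 to 150 bases had the same order: GTAAGT starts were 1.97 times as dense in lsm4 as in WT Col and other starts 1.49 times, with 1.44 and 1.21 times in lsm5 over WT C24. A G at position 5 alone went with a log2 difference of 0.21 in the Col pair and 0.16 in the C24 pair among the short introns, and groups did not overlap. An end in CAG went with 0.16 in the Col pair and -0.01 in the C24 pair, where groups overlapped. Short introns richer in A and T than the median of the class had the smaller ratio in lsm4, with a log2 difference of -0.13, with no overlap, but a difference of 0.03 with overlap in lsm5. First introns stood at 16.3 ± 0.803% in lsm4 and 7.58 ± 0.169% in WT Col, and last introns at 15.9 ± 0.543% in lsm4 and 7.92 ± 0.225% in WT Col, both denser than the rest, but their log2 differences (0.15 and 0.04) came with overlapping groups. By their effect on the reading frame the introns that rose in lsm4 were close to the others: 81.1% of the 375 raised introns between coding exons would add a stop in frame, against 81.3% of 937 other tested ones.

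**Figure D5:**
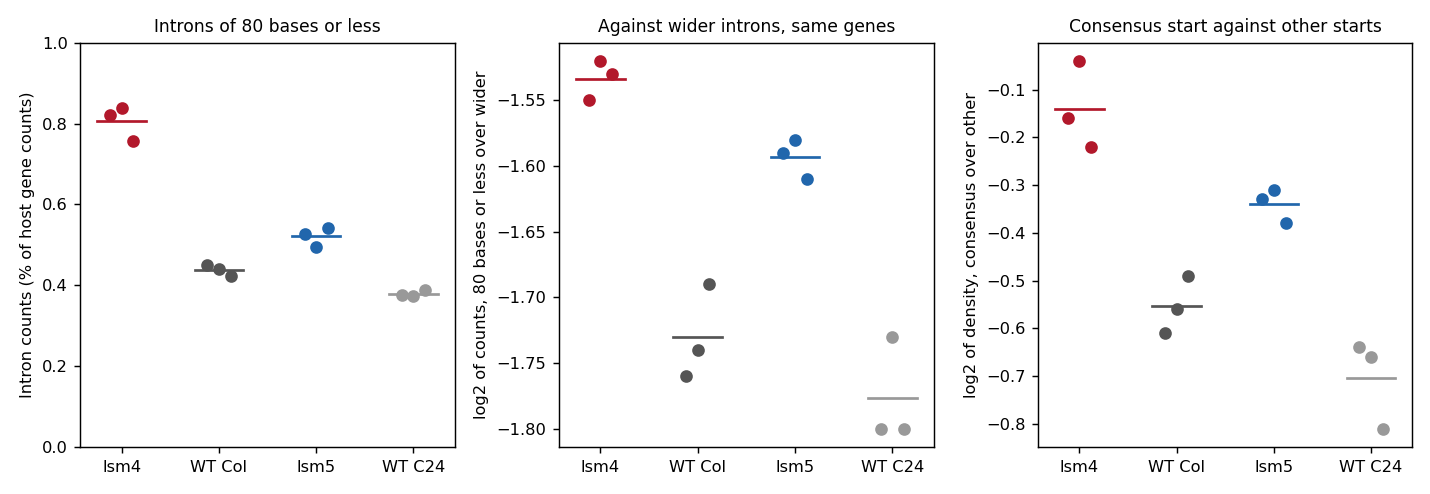
Sums over introns in each of the 3 libraries per group, exon overlaps left out (points; bars are means): short intron counts as percent of host counts (left), their log2 ratio to wider introns of the same genes (middle), and the log2 density ratio of introns of 61 to 80 bases with the consensus start over other starts (right). In each panel all lsm4 points lie above all WT Col points and all lsm5 points above all WT C24 points.

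Some short introns were already dense in reads in wild type. Of the 5 densest in WT Col among those with a mean count of at least 50, none was called in lsm4; 3 of the falling introns above, with fewer reads, were also denser than their host in WT Col. The densest of the 5 was intron 2 of HSFA9, a heat shock factor of seeds, whose counts equal those of the whole gene in all libraries but lsm5 2; it lies within annotated exons. Intron 1 of AT1G49700, of 67 bases and free of exons, was at 907, 850 and 922% in lsm4 and 960, 950 and 855% in WT Col (log2 change -0.04, SE 0.24), while lsm5 held no count and WT C24 held 1, with host counts of only 4, 9 and 3 in lsm5 and 0, 5 and 0 in WT C24. In AT4G16900, intron 3 was at 556, 556 and 460% in lsm4 and 673, 516 and 470% in WT Col, and at 0 counts in all 6 libraries of the C24 pair, with host counts of only 29 to 45 there. Intron 6 of AT4G36520 measures 34 bases and was at 698, 706 and 482% in lsm4, 1237, 803 and 665% in WT Col, 558, 443 and 552% in lsm5 and 868, 527 and 668% in WT C24. The introns of AT1G49700 and AT4G36520 are shown because they have GT and AG ends and overlap no exon, as the raised introns printed above do, yet were dense in WT Col. They lie at chr1:18388925-18388991, chr4:17233130-17233163, both on the minus strand, with capitals as before.
AT1G49700 intron 1: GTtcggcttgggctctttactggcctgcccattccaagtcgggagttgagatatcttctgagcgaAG
AT4G36520 intron 6: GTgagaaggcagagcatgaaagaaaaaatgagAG
Their shares of A and T were 46.3 and 58.8%; in the 9 raised introns printed first it ran from 56.9 to 71.4%, and the median of the class was 67.1%. The narrowest intron tested, intron 12 of SC3 with 10 bases, was at 277, 55.4 and 168% in lsm4 and 223, 97.1 and 101% in WT Col, and at 118, 170 and 56.9% in lsm5 and 112, 107 and 81% in WT C24. Of the 5 narrowest tested in each pair, none was called.

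The authors' deposited tables of their own intron comparisons list 3024 introns as higher in lsm4, of which 770 (25.5%) measure 80 bases or less, and 1191 as lower, of which 100 (8.40%) do. For lsm5 the authors' deposited tables hold 416 as higher, of which 105 (25.2%) belong to the class, and 112 as lower, of which 9 (8.04%) do. The largest adjusted p among these in the authors' deposited tables was 0.15. Of the 770, 292 could be tested here, all 292 were higher in lsm4 and 235 were called; of the 105, 39 could be tested, all 39 were higher in lsm5 and 7 were called. Of the 100 listed as lower in lsm4, 65 could be tested, 49 were lower and 2 were called.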

How the data were processed

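RNA from whole plants was sequenced in 24 samples of 4 groups, with a TruSeq kit after polyA selection, per the labels' protocols. The submitters' processing notes name TopHat2 2.0.9, R 3.0.2, edgeR 3.4.2 and TAIR10, with no role; which program counted reads, and how it used strand and reads with several matches, is not given in the sources used here, so reads of overlapping genes cannot be told apart. The authors deposited raw counts per gene and per intron in 12 columns, each the sum of the 2 libraries of a replicate, and tables with their own adjusted p-values and log2 fold changes. Of the deposited tables, 12 further columns of values per sample that match no label were not used. A row with no name (1 row, 11 counts) was left out.

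Introns were tested with edgeR 4.0.16 (R 4.3.3; quasi-likelihood test, log host gene count as offset) within each pair of groups. Introns entered where the host had 10 or more counts in each library and the intron passed filterByExpr (minimum count 10), and p-values were adjusted by Benjamini-Hochberg over all introns tested, with a threshold of 0.05. The difference between the mutants' effects was fitted over all 12 columns. Host genes were tested with edgeR on TMM-scaled counts. Sums per library took every intron of the class and were compared by exact two-sided permutation tests. Splice sites, exons and reading frames were read from RefSeq TAIR10.1, whose nuclear chromosomes are those of TAIR10. The code was tested on simulated counts with known changes. Alternatives were DESeq2 1.42.0, other filters, scalings and widths, replicate blocks, and leaving out each library.

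Named introns, per pair, were the 10 largest rises among called introns with GT and AG ends, no exon overlap, no overlap between groups, a mean count of at least 20 and at least 4 wild type counts; the 5 largest falls by like conditions (0 met them); called introns of the listed genes; the 5 densest in wild type (mean count of at least 50); and the 5 narrowest tested. For the difference between mutants they were the 5 of lowest p. The class of introns, the gene lists and the rule were chosen with earlier results of these data known. Counting error alone allows up to 3 counts where 0 were seen.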

Additional observations from a re-analysis of the deposited data

Results flagged for a closer look

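The effect of lsm4 over WT Col and that of lsm5 over WT C24 pointed in opposite directions, library by library, for 2 named introns. Both were among the 5 named for the lowest p of the difference between mutants, a choice that favours opposed effects. Over all tested introns, every mutant library lay above every wild type library for 36.6% in lsm4. Every mutant library lay below for 1.79% in lsm5. The 2 introns are therefore no result about the class. Intron 3 of ATFRO6, of 80 bases in a gene for a ferric chelate reductase of green tissue, was at 10.5, 38 and 26.1% of its host's density in lsm4, against 0, 6.19 and 4.25% in WT Col. In the C24 pair it was at 3.69, 0.918 and 4.98% in lsm5, against 14, 5.6 and 16.3% in WT C24. The C24 values rest on only 4, 1 and 5 counts in lsm5 and 9, 9 and 17 in WT C24. This intron had too few reads to be tested within either pair. The difference of the log2 changes was 4.24 (SE 1.00), and edgeR's quasi-likelihood test of this difference gave an adjusted p of 0.30.

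Intron 2 of AT4G24930, of 59 bases, was at 48.9, 74.5 and 52.3% in lsm4, against 23.0, 15.9 and 19.2% in WT Col. In the C24 pair it was at 7.88, 7.39 and 7.78% in lsm5, against 9.65, 13.3 and 14.9% in WT C24. These rest on 6, 7 and 8 counts in lsm5 and 5, 13 and 13 in WT C24, too few to be tested within that pair. The difference was 2.38 (SE 0.59), with an adjusted p of 0.36 in the same edgeR test. Neither difference passed the threshold, and accession, medium and, by the protocol, the age of the mutants differ between the pairs.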

How the results depend on the processing

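The ratio of shares in lsm4 was 1.70, with 2.30 as the median over host genes and 1.85 without exon overlaps. The lsm5 ratio of 1.28 became 1.46, 1.37 without exon overlaps, 1.37 without the libraries that stood apart (an alternative chosen after seeing the data), and 1.23 to 1.35 with a library left out. The lsm4 excess over wider introns of 0.17 became 0.29 as a median over hosts and 0.10 without the libraries that stood apart. All of these kept their direction. In the C24 pair, without the libraries that stood apart, genotype cannot be told apart from the shift that crosses the groups. This holds for the calls below too.

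For the 390 higher and 4 lower introns in lsm4, the counts were 105 and 11 relative to the shift of all introns, 102 and 1 at a mean count of at least 30, 541 and 21 without the host offset, 199 to 500 and 2 to 6 with a library left out, and 220 higher at a limit of 75 bases. For the 8 higher introns in lsm5 they were 28 with DESeq2, 98 (and 41 lower) without the libraries that stood apart, 2 relative to the shift, 2 at a mean count of at least 30, 38 (and 1 lower) with no filter, 19 without the host offset, 4 at 75 bases, and 0 to 28 (0 to 1 lower) with a library left out. The difference between mutants had 0 calls, and 17 without the host offset. Called host genes numbered 1560 in lsm4, with 896 to 1525 when a library was left out (896 without lsm4 1, 938 without WT Col 2). In lsm5 they numbered 152, with 504 by DESeq2 and 9 to 662 with a library left out (9 without WT C24 3, 662 without lsm5 3). The cause of these shifts was not tested.

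Replicate numbers did not pair the samples throughout. Deviations in relative intron signal of same-numbered samples correlated at -0.17, -0.15 and 0.25 in the Col pair and -0.23, 0.45 and 0.43 in the C24 pair. At the gene level these were -0.45, -0.18 and 0.53 in the Col pair and -0.39, 0.66 and 0.61 in the C24 pair. In intron signal lsm5 1 and WT C24 2, of unlike number, correlated at 0.48, and lsm5 3 and WT C24 2 at -0.63 (-0.8 at the gene level). Whether the numbers mark a shared origin in the C24 pair was not tested. With the number as a replicate block, 299 introns were higher and 3 lower in lsm4, 41 and 1 in lsm5, 1 differed between mutants, and 439 host genes were called in lsm5; blocks by the library tag that replicates share gave 581 and 5 in lsm4 and 29 and 1 in lsm5.

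Of 24 calls of named introns, 12 of 19 in lsm4 and 0 of 5 in lsm5 held in every alternative run, and none reversed. Depth limits the class: 1192 of the introns tested in lsm4 had a WT Col library under 10 counts, and 482 of those tested in lsm5 a WT C24 library.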
